A study of Mus musculus with 8 samples.

Results

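S-phase cells, the cells that copy their DNA, were taken from single-cell RNA-seq of the epithelium of the mouse cecum and colon. A cell counted as such when it held at least 500 transcripts, 6 or more of 10 genes of DNA synthesis (Uhrf1, Dtl, Clspn, Ccne2, Cdc6, Hells, Pola1, Brca1, Slfn9 and Kntc1) had a count in it, and fewer than 6 of 10 genes of mitosis (Top2a, Mki67, Cenpf, Ube2c, Aspm, Nusap1, Kif11, Cenpe, Prc1 and Anln) did. This rule found 956 of the 14840 cells in the 6 groups used, or 6.44%. The cecum gave 129 S-phase cells in the Ctrl group, 120 in Abx_4D, 141 in Abx_14D and 110 in GF, and the colon gave 223 in Abx_14D and 233 in GF. The counts of these 20 genes chose the cells, so their levels are given below as a description without a test.

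The groups are germ-free mice (GF), control mice (Ctrl) and mice given antibiotics (Abx_4D and Abx_14D), named as deposited. The sources used here do not state what 4D and 14D stand for, the antibiotics, or the strain, sex and age of the mice. Cells of a condition were pooled, and EPCAM-positive, CD45-negative cells were sorted and loaded with CD44-positive (proliferative) and CD44-negative (differentiated) cells in equal parts, so the sort sets the balance of dividing and differentiated cells in part. Each group holds 4 numbered samples, barcoded together over 8 sublibraries. No label names separate animals, so the p-values below measure the spread between numbered samples, which may be technical.

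In the crypts of the large intestine, stem and progenitor cells divide at the base and their progeny stop dividing as they move up. Before S phase, cyclin E and CDK2 release E2F transcription factors, which switch on the genes of replication: the origin recognition complex with Cdc6 and Cdt1 loads the Mcm2 to Mcm7 helicase, the polymerases copy the strands on the PCNA clamp, and ribonucleotide reductase and thymidylate synthase make the deoxynucleotides. The mitotic genes come later, in G2 and mitosis.

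Promoters show how the genes of the rule and the replication helicase differ in sequence from the mitotic genes. In RefSeq promoters of build GRCm38.p6 (300 bases, from 250 before the start site), the E2F-type words TTTCCCGC, TTTGGCGC, TTTCGCGC and TTTGCCGC were searched on both strands, counting overlaps. At least 1 of these words was found for 6 of the 9 S-phase genes of the rule present in the promoter table (Uhrf1, Dtl, Clspn, Cdc6, Hells and Pola1, but not Brca1, Slfn9 or Kntc1). The Mcm genes held one in 4 of 5 present (Mcm3, Mcm5, Mcm6 and Mcm7, but not Mcm2), the 10 mitotic genes in 0 of 10, and all symbols of the table in 704 of 27025 (2.61%). Each word alone was found for 0.374% to 1.24% of symbols. A match is a description of the letters and shows no binding. The 5 promoters below belong to Dtl (chr1:191575495-191575794, minus strand), which marks the loading factor Cdt1 for destruction, Cdc6 (chr11:98907901-98908200, plus strand), which loads the helicase, Hells (chr19:38930740-38931039, plus strand), a chromatin remodeller, and the helicase subunits Mcm5 (chr8:75109259-75109558, plus strand) and Mcm6 (chr1:128359656-128359955, minus strand). Capitals mark the words. The first base of the first word lies at -8 from the start site in Dtl, -138 in Cdc6, -62 in Hells, -153 in Mcm5 and -110 in Mcm6, and in Mcm5 and Mcm6 another word on the opposite strand overlaps it.
Dtl: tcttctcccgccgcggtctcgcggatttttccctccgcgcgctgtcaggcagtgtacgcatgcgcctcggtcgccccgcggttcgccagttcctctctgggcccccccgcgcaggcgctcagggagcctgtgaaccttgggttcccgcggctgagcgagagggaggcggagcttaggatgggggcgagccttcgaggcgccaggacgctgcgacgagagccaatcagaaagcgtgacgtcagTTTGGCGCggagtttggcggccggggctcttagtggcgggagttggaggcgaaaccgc
Cdc6: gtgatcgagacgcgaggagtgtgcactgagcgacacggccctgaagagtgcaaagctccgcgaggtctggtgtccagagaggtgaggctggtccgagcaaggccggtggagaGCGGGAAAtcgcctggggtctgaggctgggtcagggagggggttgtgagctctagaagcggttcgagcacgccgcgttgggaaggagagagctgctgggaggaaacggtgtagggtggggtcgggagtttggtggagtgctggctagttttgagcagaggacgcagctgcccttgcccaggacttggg
Hells: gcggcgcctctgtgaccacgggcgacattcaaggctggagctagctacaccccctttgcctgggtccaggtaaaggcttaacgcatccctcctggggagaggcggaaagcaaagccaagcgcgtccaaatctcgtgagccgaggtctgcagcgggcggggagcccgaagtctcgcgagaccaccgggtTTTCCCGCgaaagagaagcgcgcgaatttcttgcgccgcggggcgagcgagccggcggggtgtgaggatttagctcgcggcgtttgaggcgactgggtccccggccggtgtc
Mcm5: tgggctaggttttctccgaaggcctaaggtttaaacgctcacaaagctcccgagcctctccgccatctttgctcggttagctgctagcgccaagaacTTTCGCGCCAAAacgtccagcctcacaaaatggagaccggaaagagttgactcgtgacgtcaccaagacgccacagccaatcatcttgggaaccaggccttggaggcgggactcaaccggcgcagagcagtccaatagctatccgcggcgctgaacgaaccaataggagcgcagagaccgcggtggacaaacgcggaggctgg
Mcm6: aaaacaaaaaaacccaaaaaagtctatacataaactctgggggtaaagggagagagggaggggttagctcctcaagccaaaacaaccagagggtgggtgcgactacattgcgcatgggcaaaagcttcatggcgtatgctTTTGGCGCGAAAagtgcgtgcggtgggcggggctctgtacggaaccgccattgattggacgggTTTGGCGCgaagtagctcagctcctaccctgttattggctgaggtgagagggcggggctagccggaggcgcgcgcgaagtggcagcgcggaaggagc

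The deposited matrix held 24609 barcodes, 33696 genes and 259517245 transcripts, of which 15916 barcodes reached 500 transcripts. The S-phase cells had a median of 19547.5 transcripts (quartiles 13957.8 and 26514) and 5371 genes, against 14247.5 transcripts over all cells kept, and summed to 148510 to 3244455 transcripts per sample. Levels below are CPM, the counts of a gene per 1000000 transcripts of such a sum, given for samples 1 to 4 in order, and are compared within a gene only. Of the cells kept, 907 shared their wells with a cell of another sublibrary, and 2 S-phase cells shared theirs with another S-phase cell. In 4 cecal samples (Abx_4D 2, Abx_14D 3 and 4, and GF 4) the median mitochondrial share passed 0.5%, and the S-phase cells there stood at 0.376% to 0.485%. The colon sample Abx_14D 4 held 9 S-phase cells, under the minimum of 10, and was left out of every gene test, which then rests on 3 samples of that group.

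3 cells stood apart from the rest. They touch every result on germ-free cecum and, since the cecal groups share a fit, the counts of genes called in the antibiotic groups. With 224331, 285582 and 532444 transcripts they lay far above the next largest S-phase cell (87958), and they made up 27.8%, 19.8% and 71.7% of the S-phase sums of cecal GF samples 2, 3 and 4. Each had exactly 6 S-phase genes. Mcm6 stood at 4.46, 0 and 0 CPM in them, against 242, 206 and 215 CPM in the remaining S-phase cells of the same samples, and the stem cell gene Lgr5 at 4.46, 7.0 and 3.76 CPM against 296, 405 and 496. Genes of mature absorptive cells were high: Car1, a carbonic anhydrase, stood at 8167, 12144 and 13100 CPM against 805, 502 and 219, and Krt20, a keratin of surface cells, at 156, 777 and 997 CPM against 5.14, 3.47 and 0. In these 3 cells the replication genes did not match the name S phase. Whether each barcode is 1 cell was not tested, and no doublet caller was run, so the counts on cecal GF, and the named genes they moved, are given with and without them.

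Replication genes that the rule did not use were then described in the same cells. Of 51 genes of replication origins and forks, all were higher in S-phase cells than in cells outside both dividing classes, and 47 (92.2%) were at least 2-fold higher, against 4.84% of the 11134 genes with at least 5 CPM. Their median ratio was 4.75 (all genes 1.06). Against G2 and mitosis cells (1693 cells with 6 or more of the mitotic genes), 41 of the 51 were higher in S-phase cells, with a median ratio of 1.5 (all genes 1.00). These contrasts follow from the choice of cells, so they carry no test and do not check the label.

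The helicase subunits had the same order in the 3 classes. Mcm6 averaged 203 ± 45.9 CPM (SD, n = 24 samples) in S-phase cells, 93.3 ± 31.1 in G2 and mitosis cells and 38.7 ± 13.7 in cells outside both, and was higher in S phase than in G2 and mitosis in 24 of 24 samples. Mcm3 averaged 117 ± 35.7, 58.9 ± 26.4 and 15.3 ± 7.02 CPM, and Mcm5 96.9 ± 29.7, 54.8 ± 20.2 and 11.7 ± 3.87. Mcm2 (81.5 ± 22.8 CPM in S phase), Mcm4 (141 ± 36) and Mcm7 (126 ± 33.1) had the same order. The lowest sample for Mcm6 was cecal GF 4, at 60.6 CPM, the sample in which a single deep cell held most of the sum.

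Some genes of licensing and of G1/S control were higher in these cells than in both other classes, though of 32 genes of G1/S control 18 were higher than in G2 and mitosis (median ratio 1.06), where 5654 of all 11134 genes were. Cdt1, which loads the helicase and is destroyed once replication starts, averaged 42.8 ± 12.9 CPM in S phase, 19.2 ± 8.06 in G2 and mitosis and 7.62 ± 3.23 outside. E2f1, an activator of replication genes, averaged 26.1 ± 10.3, 9.72 ± 5.58 and 2.49 ± 0.978 CPM. Timeless, a protein that stabilises forks, averaged 60.9 ± 17.6, 25.5 ± 9.39 and 8.10 ± 5.14 CPM, and the mismatch repair gene Msh6 averaged 111 ± 23.9 CPM in S phase against 52.3 ± 13.9 in G2 and mitosis, where S phase was higher in 24 of 24 samples. Timeless and Msh6 were singled out after their values were seen.

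Fork and nucleotide genes were shared with G2 and mitosis cells to differing degrees. Pcna, the sliding clamp, averaged 181 ± 60.6 CPM in S phase, 134 ± 57.4 in G2 and mitosis and 53 ± 12.3 outside, and Pole, the leading strand polymerase, 95.3 ± 31.9, 62.7 ± 19.4 and 6.29 ± 2.53. Tyms, thymidylate synthase, and Rrm1, the large subunit of ribonucleotide reductase, stood at about one level in both dividing classes (61.6 ± 16.8 and 61.3 ± 17.5 CPM for Tyms, 114 ± 30.0 and 116 ± 30.5 for Rrm1). Rrm2, the small subunit of the same enzyme, was lower in S phase (42.1 ± 23.8 CPM) than in G2 and mitosis (75 ± 33.9), with S phase higher in 1 of 24 samples. Of 16 genes of chromatin assembly all were above cells outside both classes (median ratio 2.85), as were 28 of 29 genes of nucleotide synthesis (2.18), 39 of 39 of replication stress and repair (3.21) and 26 of 32 of G1/S control (1.54). Over all genes 6613 of 11134 were (1.06).

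**Figure D1:**
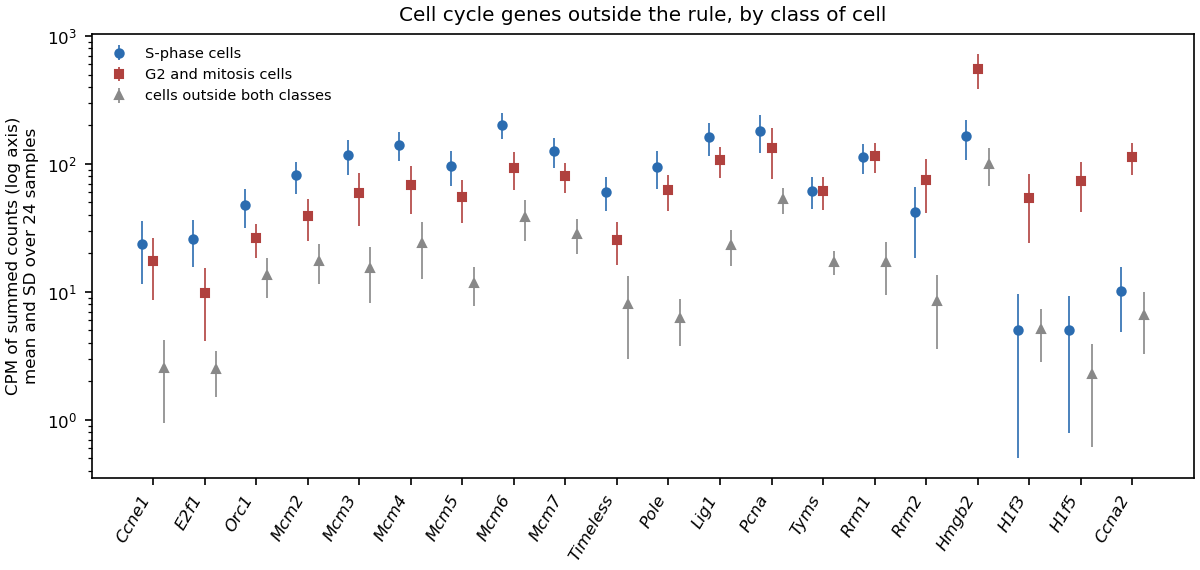
Mean and SD over 24 samples of the CPM of 20 cell cycle genes that the rule did not use (log axis), in S-phase cells (circles), G2 and mitosis cells (squares) and cells outside both classes (triangles). Mcm2 to Mcm7, Orc1, E2f1 and Timeless were highest in S-phase cells, while Rrm2, Hmgb2, the linker histones H1f3 and H1f5 and Ccna2 were highest in G2 and mitosis cells.

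Ccna2, Hmgb2 and the histone genes were lower than in G2 and mitosis cells. Ccna2, cyclin A2, averaged 10.2 ± 5.36 CPM in S-phase cells and 113 ± 31.9 in G2 and mitosis cells, and Hmgb2, a chromatin protein of dividing cells, 165 ± 56.5 and 556 ± 168. The 5 linker histones H1f1 to H1f5 averaged 1.69, 6.82, 5.08, 9.58 and 5.07 CPM against 12.8, 36.6, 54.0, 55.1 and 73.2. Most replication-dependent histone mRNAs lack a poly(A) tail, and the labels give the molecule as polyA RNA, whose part in these levels was not tested. Over 21 histone genes with at least 5 CPM the median ratio of S phase to G2 and mitosis was 0.115, with 0 of 21 higher in S phase. Against cells outside both classes 11 of the 21 were higher (median ratio 1.18), beside 6613 of 11134 genes (1.06). Whether each cell had begun to copy its DNA was not tested. The 876 cells with 6 or more genes of both lists were counted as G2 and mitosis, where they made up 51.7% of the class, so S phase as chosen here leaves out cells that also express the mitotic genes.

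At the threshold the cells graded into one another. The 394 cells with 5 S-phase genes had a summed Mcm2 to Mcm7 level of 501 CPM, and the 286 members with 6 genes had 539. Members with 7 genes had 734, with 8 genes 784 and with 9 genes 889, and the 130 members with all 10 genes reached 999.954 CPM, at a median of 24341 transcripts against 18189 in those with 6. The rule's genes differed in how often they were seen: Pola1 had a count in 99.7% of S-phase cells and Hells in 98.2%, but Kntc1 in 54.8% and Cdc6 in 53%. Of the mitotic genes Mki67 (77.9%) and Top2a (70.2%) were common, while Ube2c and Aspm were each seen in 5.13%.

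Several genes of crypt progenitors were higher in S-phase cells than outside both dividing classes. Lgr5 averaged 359 ± 113 CPM against 264 ± 95.4 in cells outside both dividing classes, and 638 ± 160.0 in Lgr5-positive noncycling cells, which were chosen on that gene. The Na-K-Cl cotransporter Slc12a2, a gene of the crypt base, averaged 1502 ± 485 CPM against 1273 ± 576. Cdk6 averaged 789.9 ± 164 against 555 ± 167 and Ccnd2, cyclin D2, 439 ± 109 against 294 ± 74.0, and these 2 genes drive cells through G1. Of 25 genes of Wnt signalling and stem cells 22 were higher than outside both classes (median ratio 1.32), and of 25 genes of Myc and ribosome biogenesis 25 were (1.61). Over all genes 6613 of 11134 were higher (1.06). At least 2-fold higher were 1 of the Wnt and stem cell genes (4%) and 4 of the Myc and ribosome genes (16%), beside 4.84% of all genes.

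Genes of mature cells were lower. Of 22 secretory genes 0 were higher in S phase than outside both classes (median ratio 0.486), and of 29 absorptive genes 4 were (0.495). Over all genes 6613 of 11134 were (1.06). The brush border anion exchanger Slc26a3 averaged 186 ± 459 CPM (61.8 ± 55.3 without the 3 deep cells) against 729 ± 706, the mucin Muc2 848 ± 1808 against 2968 ± 2448, the tuft cell kinase Dclk1 12.2 ± 34.3 against 111 ± 92.9 and the endocrine granule protein Chgb 1.57 ± 3.09 against 45.4 ± 47.7. Interferon genes were also low, with 7 of 52 higher in S phase (0.526). Markers of other cells were near 0: 17 immune genes summed to between 0 and 5.41 CPM per sample (median 1.35, against 16.1 outside both classes) with 10 of them at 0, and 12 stromal genes to at most 32.3 CPM, with Cd3g, Lyz2, Tyrobp, Col1a2 and Col3a1 at 0.

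Within S phase, cells could be ordered by how many mitotic genes they held. Leaving out the 3 deep cells, 201 cells had 0 or 1 of them, 463 had 2 or 3 and 289 had 4 or 5, with median depths of 17898, 19864 and 21679 transcripts. The median number of S-phase genes detected rose as well, at 6, 7 and 9, so the bins differ in both gene lists and in depth. The bins use the counts of the rule, so what follows is a description over 6 groups (mean ± SD) and gives no order in time. Mcm6 was level, at 211 ± 25.3, 223 ± 18.8 and 219 ± 23.2 CPM, as was Cdt1, at 42.8 ± 11.6, 42.0 ± 8.12 and 48.6 ± 11.1.

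Rrm2 climbed from bin to bin, at 22.5 ± 13.2, 36.1 ± 22.9 and 58.5 ± 27.0 CPM, a ratio of 2.60 from first to last. E2f7 and E2f8, the repressors that end the E2F programme, climbed as well, with E2f7 at 7.98 ± 7.08, 16.7 ± 5.09 and 33.2 ± 8.97 CPM (4.16-fold) and E2f8 2.38-fold higher. Cdc45, which turns the loaded helicase on, was 2.66-fold higher, Ccna2 2.67-fold and the linker histone H1f5 3.70-fold. Lgr5 went the other way, at 538 ± 178, 417 ± 32.8 and 316 ± 76.7 CPM, and Cdk6 at 955 ± 125, 878 ± 82.8 and 762 ± 84.8. Rrm2, E2f7, E2f8 and Ccna2 were also higher in G2 and mitosis cells than in S-phase cells, at 75, 30.7, 76.4 and 113 CPM.

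Most counts of Muc2 came from few S-phase cells. Of 953 cells without the deep ones, the 48 richest (5%) held 94.4% of all Muc2 counts, though 576 cells had at least 1, and 17 cells exceeded 5000 CPM. Atoh1, the factor that sets secretory fate, had a count in 56 cells. The share of the top 48 was 90.6% for the mucus protein Fcgbp (229 cells with a count), 67.8% for Car1 (592) and 59.98% for Slc26a3 (313), but 31.8% for Lgr5, 19.5% for Slc12a2 and 14.1% for Mcm6. Sums of Muc2 per sample accordingly ranged from 26.9 to 8657 CPM, and in a sum a few cells with much of a gene and many with little cannot be told apart.

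S-phase cells as a share of all cells ranged widely between samples of 1 group. In the cecum they were 13.6%, 9.47%, 5.96% and 12.2% of the 4 Ctrl samples, 8.72%, 8.38%, 10.3% and 5.39% of Abx_4D, 10.8%, 8.43%, 4.43% and 3.82% of Abx_14D, and 9.74%, 6.62%, 7.11% and 3.8% of GF. In the colon they were 7.79%, 5.68%, 4.24% and 1.39% of Abx_14D and 6.36%, 4.98%, 4.91% and 5.64% of GF. All groups overlapped with one another.

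The mean share was 10.3% ± 3.38 in cecal Ctrl (SD, n = 4), 8.20% ± 2.06 in Abx_4D, 6.86% ± 3.32 in Abx_14D and 6.82% ± 2.43 in GF. Against Ctrl the differences were -2.11 percentage points for Abx_4D (two-sided exact permutation p = 0.314), -3.45 for Abx_14D (exact p = 0.171) and -3.50 for GF (exact p = 0.2). The colon averaged 4.78% ± 2.69 in Abx_14D and 5.47% ± 0.677 in GF, a difference of 0.698 points (exact p = 0.714), and the colon lay 2.09 points under the cecum in Abx_14D and 1.34 in GF (exact p = 0.371 for both). Over 8 comparisons the adjusted p-values were 0.594 to 0.971, where 4 against 4 samples cannot go below 0.0286 unadjusted. Without the 4 samples of high mitochondrial share the differences from Ctrl were -2.17, -0.710 and -2.50 points for Abx_4D, Abx_14D and GF.

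As a share of all dividing cells, S-phase cells made up 40.9% ± 7.76 in the cecal Ctrl samples, 35.7% ± 8.35 in Abx_4D, 27.4% ± 11.2 in Abx_14D and 33.3% ± 6.11 in GF. In the colon this share was 39.9% ± 13.7 in Abx_14D and 38.7% ± 1.36 in GF. The exact permutation p-values of the 8 comparisons were 0.0857 to 0.914, and adjusted 0.457 to 0.914. Depth enters such shares, so each cell was also thinned to 10000 transcripts and called at 4 or more S-phase genes, which kept 827, 891, 1560 and 1162 cells of the 1330, 1511, 2296 and 1636 in cecal Ctrl, Abx_4D, Abx_14D and GF. The share was then 16.5% ± 4.04 in Ctrl and 9.5% ± 1.10 in GF, a difference of -7.02 points at the smallest exact p possible (0.0286), which adjusted to 0.229. Without thinning, GF against Ctrl gave -4.29 points at 7 or more genes (exact p = 0.114) and -4.73 at 5 or more (exact p = 0.114). In cells of 10000 or more transcripts the difference was -5.36 points (exact p = 0.0571).

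**Figure D2:**
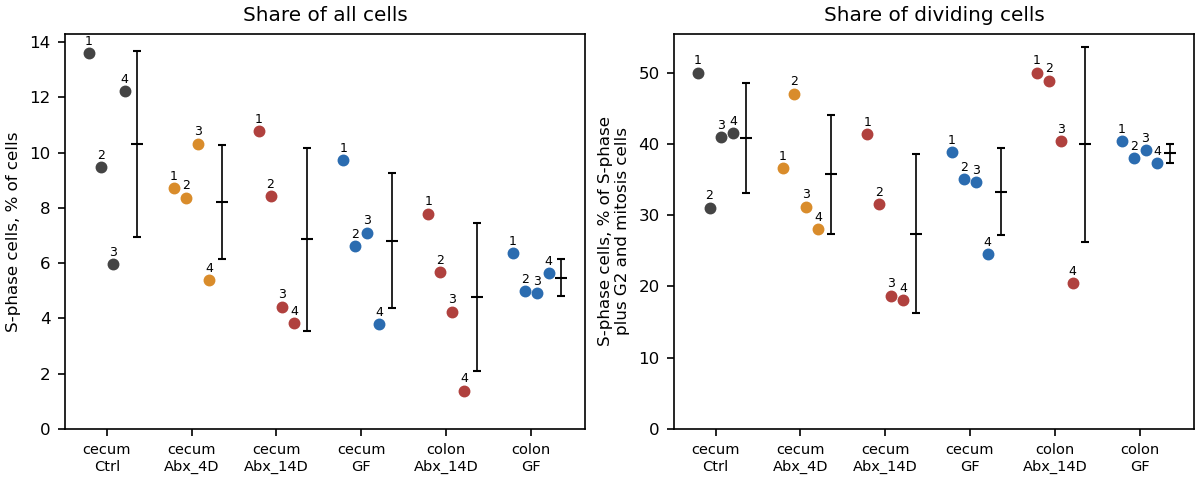
S-phase cells as a percent of all cells (left) and of S-phase plus G2 and mitosis cells (right), 1 numbered point per sample, with the mean and SD of each group of 4 beside it. The groups overlap, with colon Abx_14D sample 4 lowest at 1.39% of all cells and cecal Ctrl sample 1 highest at 13.6%.

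The replication genes did not pass the test between conditions in the cecum. S-phase sums of the 16 cecal samples were compared with edgeR's quasi-likelihood test, with p-values adjusted over all 9185 genes. Of the 51 genes of origins and forks 0 passed in Abx_4D, Abx_14D or GF against Ctrl, with 0, 0 and 15 at an unadjusted p under 0.05 and a smallest adjusted p of 0.0504 in GF. DESeq2 called 0, 0 and 2 of them, the latter lower in GF. The median log2 fold changes were 0.12, -0.09 and -0.50, beside 0.05, 0.04 and -0.06 over all genes tested, and without the 3 deep cells the GF value was -0.11.

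Mcm6 stood at 230.3, 252, 254 and 196 CPM in the Ctrl samples, 284, 209, 255 and 210.1 in Abx_4D, 253, 174, 214 and 183 in Abx_14D and 200.5, 176, 165 and 60.6 in GF. The first 3 groups overlapped, and the low value of GF 4 rose to 215 CPM once its deep cell was left out. Nor did any of the 29 genes of nucleotide synthesis, the 16 of chromatin assembly or the 35 of replication stress and repair pass against Ctrl, by edgeR or DESeq2. At an unadjusted p under 0.05 edgeR gave 1, 1 and 5 genes of nucleotide synthesis in Abx_4D, Abx_14D and GF, 0, 0 and 6 of chromatin assembly and 0, 0 and 2 of replication stress and repair. Pcna, the sliding clamp, and Tyms, Rrm1 and Rrm2, enzymes of nucleotide supply, were not called in any cecal comparison by edgeR. In GF against Abx_14D DESeq2 called 1 gene of nucleotide synthesis and 2 of origins and forks lower, where edgeR called 0 of either (7 and 10 at an unadjusted p under 0.05). These GF counts include the 3 deep cells, which were low in Mcm6. Over all genes, edgeR gave 1156 at an unadjusted p under 0.05 in GF against Abx_14D with the deep cells and 561 without.

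Among the genes that fell in S-phase cells of the cecum in all 3 comparisons with Ctrl were genes of the defence against microbes. With 7 of 9185 genes called for Abx_4D (0.0762%), 27 for Abx_14D (0.294%) and 389 for GF (4.24%), the 10 antimicrobial and oxidase genes tested gave 3, 5 and 7 that fell and 0 that rose. Over all genes 0.0218% rose and 0.0544% fell in Abx_4D, 0.0762% and 0.218% in Abx_14D, and 2.31% and 1.93% in GF. Their median log2 fold changes were -2.02, -3.51 and -3.81. Genes of groups at 0 counts were set at a bound of 3 counts, which left these medians as they were. By DESeq2 the calls were 4 up and 25 down for Abx_4D, where edgeR gave 2 and 5, and 57 in all for Abx_14D.

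Without the 3 deep cells 26 genes passed in Abx_4D (0.306% of 8508, with 4 or 0.047% up and 22 or 0.259% down) and 54 in Abx_14D (0.635%, with 13 or 0.153% up and 41 or 0.482% down), and the antimicrobial and oxidase genes that fell were 3, 4 and 5 of 9. The 16 genes of secretory cells tested had median log2 fold changes of -1.39 in Abx_4D and -0.78 in Abx_14D, with 0 called by edgeR in either, 8 at an unadjusted p under 0.05 in each, and 2 and 1 lower by DESeq2; without the deep cells edgeR called 2 and 0 of 15 lower. Their list summed to 648 to 11362 CPM in Ctrl, 409 to 789 in Abx_4D and 324 to 1807 in Abx_14D, ranges that overlap. Their part in the fall of the defence genes was not tested.

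Reg3g, a secreted lectin that kills gram-positive bacteria, stood at 99.0, 52.7, 39.4 and 148 CPM in Ctrl. In Abx_4D it stood at 3.84, 0, 0 and 2.12, in Abx_14D at 2.08, 0, 3.95 and 6.71, and it was listed at 0 in all 4 GF samples. No treated sample reached the lowest Ctrl sample. From summed counts it was 71.7-fold lower (95% counting interval 24.3 to 350.2) in Abx_4D and at least 125-fold lower in GF, and the log2 fold change in Abx_14D was -4.88 ± 0.61 (SE, adjusted p = 4.31e-04), with adjusted p = 0.0031 and 1.86e-05 in the other two. Counting intervals cover counting error only.

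Its neighbour in function Reg3b stood at 207, 39.0, 15.3 and 265 CPM in Ctrl and had 0 counts in Abx_4D, 1 in Abx_14D and 2 in GF, so it was at least 117-fold lower, 483-fold lower (95% counting interval 86.2 to 19109.9) and 306-fold lower (95% counting interval 84.2 to 2537). Reg3b spread widely among the Ctrl samples, where sample 3 was lowest. Reads of Reg3b and Reg3g may be split between these similar genes by the counting. Without the 3 deep cells fewer genes passed the filter on low counts, and Reg3b was not among the genes tested.

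Duox2 and Nox1, oxidases that release reactive oxygen at the cell surface, fell in Abx_14D and GF. Neither was called in Abx_4D by edgeR. Duox2 stood at 85.2, 97.6, 39.4 and 77.4 CPM in the Ctrl samples, 32.6, 6.73, 11.0 and 12.7 in Abx_4D, 6.25, 2.59, 1.32 and 2.24 in Abx_14D and 12.2, 3.71, 3.47 and 1.35 in GF, and its log2 fold change was -4.42 ± 0.53 (SE, adjusted p = 9.80e-05) in Abx_14D and -3.88 ± 0.49 (SE, adjusted p = 6.24e-05) in GF. All treated samples lay under the lowest Ctrl sample. Nox1 stood at 251, 342, 173 and 305 CPM in Ctrl, 149, 133, 108 and 80.5 in Abx_14D and 92.1, 81.7, 93.8 and 55.2 in GF (-1.18 ± 0.24 (SE, adjusted p = 0.027) and -1.73 ± 0.24 (SE, adjusted p = 2.52e-04)), without overlap with Ctrl, though the Abx_14D call was kept in 2 of the 8 fits that left out 1 sample of either group. Nos2, the inducible nitric oxide synthase, stood at 13.8, 68.3, 21.9 and 88.1 CPM in Ctrl and was at least 73.8-fold lower in GF, where it had 0 counts. It was not called by edgeR in either antibiotic group. The log2 fold change in GF without the deep cells was -3.54 for Duox2 and -1.25 for Nox1, and both passed.

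Cd177, a glycoprotein known from neutrophils and found in colonic epithelium, stood at 80.6, 310.4, 123 and 82.8 CPM in the Ctrl samples, 36.5, 20.2, 12 and 17 in Abx_4D, 4.17, 5.18, 1.32 and 0 in Abx_14D and 5.42, 1.24, 6.95 and 1.35 in GF. The Abx_4D samples lay between Ctrl and the other groups. The log2 fold changes were -2.83 ± 0.49 (SE, adjusted p = 0.0206), -5.54 ± 0.59 (SE, adjusted p = 5.82e-05) and -5.10 ± 0.55 (SE, adjusted p = 1.85e-05), the first kept in 4 of 8 such fits, and -4.72 in GF without the deep cells. The 17 immune markers summed to at most 4.38 CPM in Ctrl and 3.95 CPM in the treated cecal groups.

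Genes of antigen presentation by MHC class II fell in Abx_14D and in GF. Of 7 tested genes 0 passed in Abx_4D by edgeR or DESeq2 (2 at an unadjusted p under 0.05), 5 fell in Abx_14D and 5 fell in GF, the same 5 in both: Cd74, H2-Ab1, H2-Aa, H2-Eb1 and Ciita. The medians of the 7 were -0.67, -3.0 and -5.61, the last unchanged with the gene at 0 set at its bound. The same 5 fell in GF without the deep cells, of 6 tested. Between GF and Abx_14D 2 of 7 passed, Cd74 and H2-Ab1, both lower in GF, and 1 of 6 without the deep cells, Cd74.

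Cd74, the invariant chain that guides class II molecules, stood at 387, 418, 403 and 508 CPM in Ctrl. It stood at 403, 108, 272 and 149 in Abx_4D, 90.7, 54.4, 38.2 and 22.4 in Abx_14D and 2.71, 2.48, 2.78 and 1.35 in GF. Abx_14D and GF overlapped neither with Ctrl nor with each other. Its log2 fold change was -3.0 ± 0.34 (SE, adjusted p = 8.30e-05) in Abx_14D and -7.38 ± 0.49 (SE, adjusted p = 1.01e-08) in GF, and -7.28 (adjusted p = 3.89e-09) in GF without the deep cells. Between GF and Abx_14D it was -4.38 ± 0.54 (SE, adjusted p = 5.83e-04).

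H2-Ab1, a chain of the class II molecule, followed the same order: 73.7, 76.1, 56.9 and 94.3 CPM in the Ctrl samples, 53.8, 67.3, 42.0 and 38.2 in Abx_4D, 9.38, 13.0, 6.58 and 11.2 in Abx_14D and 0, 2.48, 0 and 1.35 in GF. It fell in Abx_14D (-2.92 ± 0.34 (SE, adjusted p = 9.25e-05)) and was 99.8-fold lower (95% counting interval 33.7 to 488) in GF, which held 3 counts. H2-Aa, the partner chain, had log2 fold changes of -4.07 ± 0.58 (SE, adjusted p = 7.82e-04) and -4.88 ± 0.60 (SE, adjusted p = 6.24e-05), and H2-Eb1, at 69.1, 27.3, 56.9 and 65.0 CPM in Ctrl, had 0 counts in GF and was at least 70.3-fold lower.
Ciita, the transactivator that switches these genes on, stood at 11.5, 46.8, 28.5 and 46.3 CPM in Ctrl and 7.29, 3.89, 1.32 and 0 in Abx_14D (-3.19 ± 0.60 (SE, adjusted p = 0.0142), kept in 4 of 8 fits that left out a sample), and with 2 counts in GF it was 69.4-fold lower (95% counting interval 18.7 to 581). Cd74 and H2-Ab1 also separated the antibiotic groups, with log2 fold changes of Abx_14D against Abx_4D of -2.17 ± 0.34 (SE, adjusted p = 0.0167) and -2.25 ± 0.36 (SE, adjusted p = 0.0167), the 2 calls among 9185 genes (0.0218%), kept in 3 and 1 of 8 such fits.

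Interferon-responsive genes fell in GF. Of 23 tested, 0 passed in Abx_4D and 0 in Abx_14D by edgeR or DESeq2 (0 and 8 at an unadjusted p under 0.05, median log2 fold change -0.46 in Abx_14D), and 7 fell in GF (median -0.98): Nlrc5, Iigp1, Irgm2, Psmb8, Psmb9, Oasl2 and Parp14. Nlrc5, which switches on MHC class I genes, stood at 32.2, 21.5, 28.5 and 36.5 CPM in the Ctrl samples, 40.3, 60.6, 26.0 and 17 in Abx_4D, 12.5, 16.8, 5.26 and 11.2 in Abx_14D and 0, 0, 1.39 and 0 in GF. The GF samples lay under all others, and with 2 counts Nlrc5 was 58.3-fold lower (95% counting interval 15.6 to 489.7). Psmb8, a subunit of the immunoproteasome, had a log2 fold change of -3.72 ± 0.64 (SE, adjusted p = 0.00175), and Irgm2, a GTPase of cell-autonomous immunity, of -3.53 ± 0.56 (SE, adjusted p = 8.58e-04). Iigp1, of the same GTPase family, was 161-fold lower (95% counting interval 28.3 to 6410.4). Without the deep cells 6 of the 7 still passed, with Psmb9 at -1.94 (adjusted p = 0.0917).

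Metal genes were among those that rose. Mt2, a metallothionein that binds zinc and copper, stood at 20.7, 1.95, 37.2 and 30.3 CPM in the Ctrl samples, 96.0, 94.3, 101 and 193 in Abx_4D, 169, 135, 143 and 221 in Abx_14D and 165, 399.7, 246 and 158 in GF, and every treated sample exceeded the highest Ctrl sample. Its log2 fold changes were 2.39 ± 0.43 (SE, adjusted p = 0.0232), 2.82 ± 0.42 (SE, adjusted p = 0.00136) and 3.37 ± 0.42 (SE, adjusted p = 6.24e-05), the first kept in 1 of 8 fits that left out a sample. Mt1 rose in GF, from 89.8, 25.4, 63.5 and 35.6 to 97.5, 311, 211 and 218 CPM (2.02 ± 0.39 (SE, adjusted p = 0.00563); 1.89 without the deep cells). Of 10 genes of metallothioneins and zinc 1, 1 and 3 rose (1, 2 and 2 without the deep cells), the third in GF being the zinc exporter Slc30a1 (1.61 ± 0.44 (SE, adjusted p = 0.0388), kept in 4 of 8 fits that left out a sample, and 0.97 (adjusted p = 0.484) without the deep cells).

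Tfrc, the transferrin receptor that takes up iron, rose in both antibiotic groups. It stood at 785, 316, 585 and 592 CPM in the Ctrl samples, 1453, 989.8, 1799.6 and 1585 in Abx_4D, 1455, 1483, 1513 and 1308 in Abx_14D and 1134, 823, 1235 and 722 in GF. In the antibiotic groups the log2 fold changes were 1.36 ± 0.24 (SE, adjusted p = 0.0232) and 1.34 ± 0.24 (SE, adjusted p = 0.0106), kept in 2 and 7 of 8 fits that left out a sample, without overlap with Ctrl. Without the 3 deep cells the GF samples stood at 1134, 1095, 1339 and 987 CPM, all above the highest Ctrl sample, so higher levels were not particular to antibiotics.
In Abx_14D the adhesion receptor Adgrb3 rose from 46.1, 31.2, 15.3 and 26.7 to 70.9, 161, 213 and 107 CPM (2.22 ± 0.38 (SE, adjusted p = 0.00627)), and Malrd1 rose from 25.3, 83.9, 50.4 and 55.2 to 131, 166, 182 and 166 (1.56 ± 0.25 (SE, adjusted p = 0.00285)). In GF without the deep cells Adgrb3 stood at 153, 75.4, 184 and 281 CPM and Malrd1 at 242, 190, 170 and 229. These also lay above every Ctrl sample. Bche, butyrylcholinesterase, and Chst8, a sulfotransferase, rose by 1.76 and 1.63 on the log2 scale, and Gsdmc4, a gasdermin, fell by 1.52, calls kept in 5, 2 and 1 of 8 fits that left out a sample. Sidt1, a membrane protein named for its likeness to a worm RNA channel, fell in Abx_4D, from 115, 191, 59.1 and 131 to 23.0, 20.2, 25 and 21.2 CPM (-2.43 ± 0.43 (SE, adjusted p = 0.0232)), a call kept in 1 of 8 such fits.

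**Figure D3:**
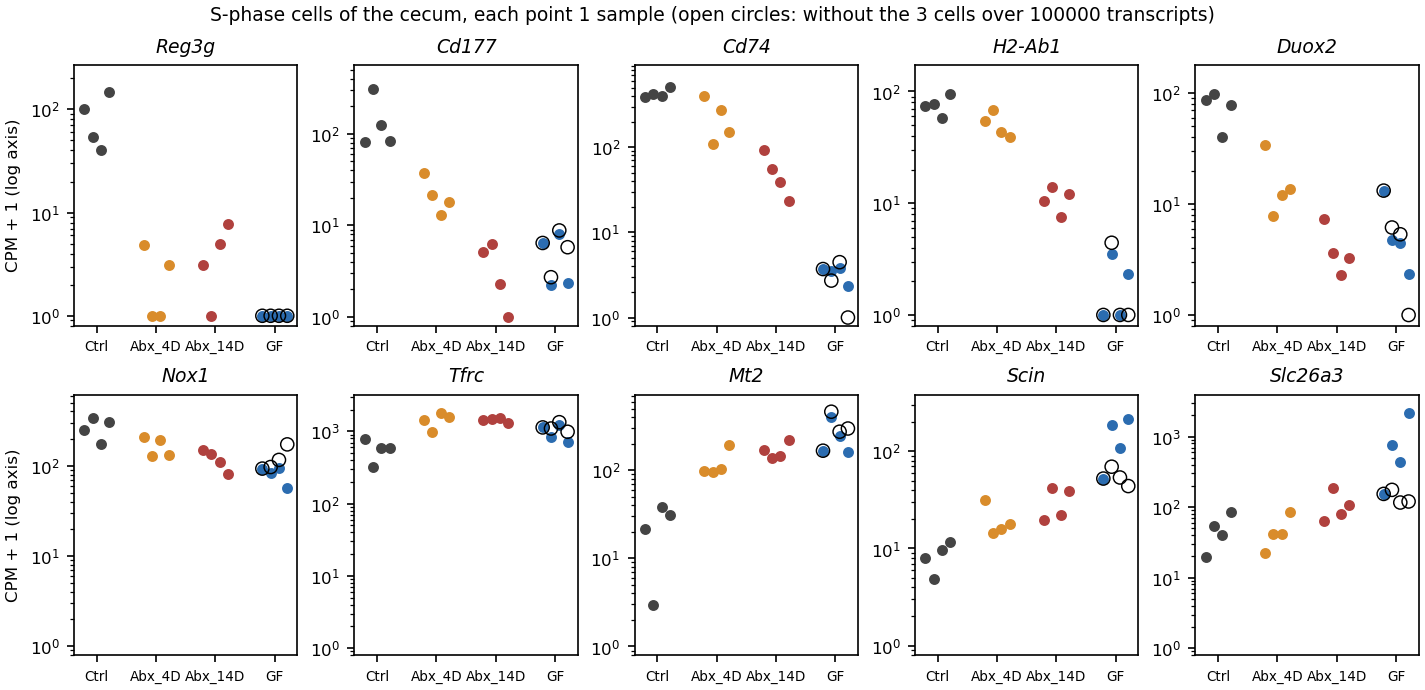
CPM + 1 (log axis) of 10 genes in the S-phase sums of the cecum, 1 point per sample in the order 1 to 4 within Ctrl, Abx_4D, Abx_14D and GF, with open circles for GF without the 3 cells over 100000 transcripts. Reg3g, Cd177, Cd74, H2-Ab1 and Duox2 fall from Ctrl to GF, Mt2 lies higher in all treated samples, and Scin and Slc26a3 lose part of their rise in GF samples 2 to 4 without the deep cells.

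Many of the 389 GF calls rested on the 3 deep cells. With them 212 genes rose and 177 fell, and without them 40 rose (0.47% of 8508 tested) and 76 fell (0.893%), 1.36% in all. The same direction passed both ways for 91 genes, 27 up and 64 down, and 35 of the 389 were not tested without the deep cells.
Absorptive genes show this most: 9 of 25 rose in GF with all cells (Slc26a3, Guca2a, Cdhr5, Car1, Emp1, Slc37a2, Krt20, Slc9a3 and Selenbp1), and 1 of 22 rose and 1 fell without the 3 cells. The summed level of the 29 genes of that list was 4519 to 7367 CPM in Ctrl, 6511 to 32454 in GF and 6112 to 6711 in GF without the deep cells.

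Slc26a3 stood at 18.4, 52.7, 39.4 and 85.4 CPM in Ctrl and 153, 748, 435 and 2195 in GF, a log2 fold change of 4.07 ± 0.62 (SE, adjusted p = 6.33e-04). Without the deep cells the GF samples stood at 153, 175, 115 and 119 CPM, and the log2 fold change was 1.42 (adjusted p = 0.061). Guca2a, the hormone guanylin, passed at 4.37 ± 0.80 (SE, adjusted p = 0.00354) with all cells and stood at -0.13 without, Car1 at 2.85 ± 0.67 (SE, adjusted p = 0.0179) and -0.07, and Cdkn1a, the CDK inhibitor p21, at 2.09 ± 0.57 (SE, adjusted p = 0.042) and -0.08. These 3 genes changed sign and were not called without the 3 cells.
Ccnd1, cyclin D1, had a log2 fold change of -0.87 ± 0.23 (SE, adjusted p = 0.0355) with them and -0.30 (adjusted p = 0.64) without. With all cells the calls of Ccnd1 and Cdkn1a were each kept in 2 of 8 fits that left out a sample, and that of Car1 in 5.

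Other genes passed both ways. Scin, an actin-severing protein, stood at 6.91, 3.90, 8.76 and 10.7 CPM in the Ctrl samples, 30.7, 13.5, 15.0 and 17 in Abx_4D, 18.8, 41.5, 21.1 and 38.0 in Abx_14D and 51.5, 187, 107 and 213 in GF (4.08 ± 0.46 (SE, adjusted p = 2.35e-05)), and at 51.5, 68.5, 52.8 and 42.9 in GF without the deep cells (2.73 (adjusted p = 1.23e-04)). Every treated sample exceeded the highest Ctrl sample. Abcg2, an efflux transporter, rose from 25.3, 23.4, 26.3 and 29.4 to 56.9, 61.9, 77.1 and 210.2 CPM (1.92 ± 0.35 (SE, adjusted p = 0.00354); 1.08 (adjusted p = 0.0124) without the deep cells), and it was 1 of 6 xenobiotic genes that rose of 26 tested, beside 3 that fell, which became 1 and 0 of 23 without the deep cells. Aqp4, a water channel of crypt base cells, fell from 242, 101, 103 and 139.7 to 69.1, 49.5, 58.3 and 20.2 CPM (-1.55 ± 0.33 (SE, adjusted p = 0.00937); -1.09 (adjusted p = 0.0319)). Of 16 secretory genes 5 fell in GF (Agr2, Creb3l1, Reg4, Spink4 and Galnt12), 2 of 15 without the deep cells, and the calls of Agr2, Reg4, Spink4 and Galnt12 were kept in 2, 2, 2 and 1 of 8 fits that left out a sample. Secretory genes sit in few cells, and their summed level in Ctrl ran from 648 to 11362 CPM against 410 to 2944 in GF, whose part in these calls was not tested.

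**Figure D4:**
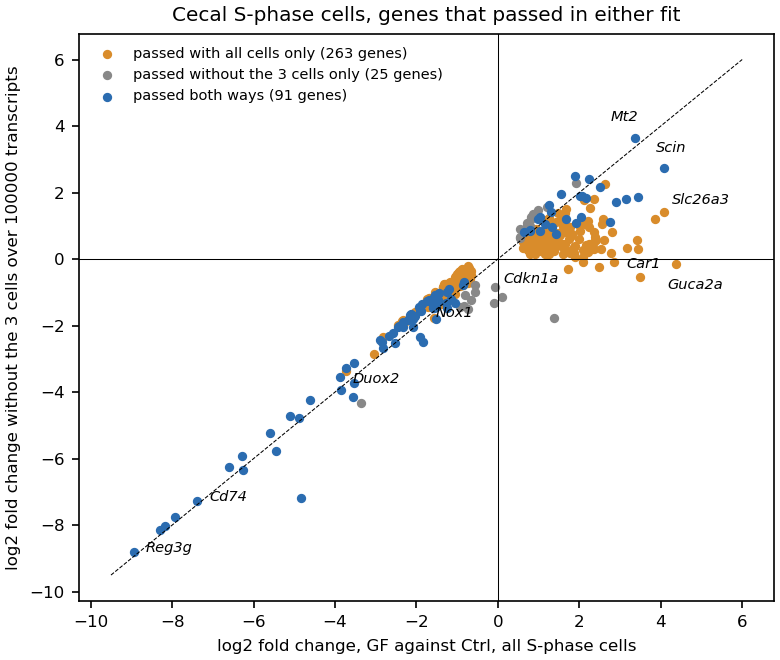
Log2 fold change of cecal GF against Ctrl in S-phase cells with all cells (horizontal) and without the 3 cells over 100000 transcripts (vertical), for genes tested in both fits that passed in either, with equality dashed. Of these, 91 passed both ways, 263 with all cells only and 25 without the 3 cells only, and Slc26a3, Car1, Guca2a and Cdkn1a drop towards 0 on the vertical axis while Cd74, Reg3g, Duox2 and Mt2 stay near the dashed line.

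Several programmes that could bear on dividing cells did not pass in the cecum. The series concerns nicotinic acid made by microbes, and of 19 tested genes of NAD and nicotinic acid metabolism 0 passed in either antibiotic group by edgeR or DESeq2 (2 and 3 at an unadjusted p under 0.05) and 1 fell in GF, Parp14, which is also an interferon gene and whose call was kept in 2 of 8 fits that left out a sample. Of 28 genes of oxidative phosphorylation 0 passed in the 3 comparisons with Ctrl by edgeR, with 0, 0 and 1 at an unadjusted p under 0.05 and 0, 0 and 1 by DESeq2. Of 25 genes of Myc and ribosome biogenesis 0 passed (2, 2 and 6 unadjusted, and 0, 0 and 2 by DESeq2), and of 28 genes of G1/S control 0, 0 and 2 passed, the 2 in GF being Cdkn1a and Ccnd1. Against Abx_14D, GF had 40 calls (0.435%, with 0.338% up and 0.098% down) with all cells and 5 without the deep ones (0.0588%, with 0.0118% up and 0.047% down), of which Cd74, Nlrc5 and Ifitm3, an interferon-induced membrane protein, fell both ways. Ifitm3 stood at 144, 85.5, 108 and 103 CPM in Abx_14D and 31.2, 26.0, 36.8 and 9.43 in GF (-2.05 ± 0.34 (SE, adjusted p = 0.0107); -1.58 (adjusted p = 0.025) without the deep cells).

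Whether conditions moved S-phase cells more than other dividing or stem-like cells was tested as an interaction over the 16 cecal samples, with the sample as a block. Against G2 and mitosis cells 0 of 10358 genes differed in their response to Abx_4D or Abx_14D by edgeR (437 and 449 at an unadjusted p under 0.05), and 129 did in GF (80 up and 49 down), or 3 without cells over 100000 transcripts in either class: Scin, Sidt1 and 2610035D17Rik. That limit took away 34 G2 and mitosis cells of the 6 groups beside the 3 S-phase cells, and which of them moved the count was not tested. Against the Lgr5-positive noncycling cells 0 of 10014 differed in either antibiotic group (459 and 290 unadjusted) and 3 in GF, Scin, Sema6a and Reg4. Without the 3 S-phase cells (no noncycling cell was as deep) Scin and Reg4 passed, Sema6a did not (1.18, adjusted p = 0.677 by edgeR) and Muc2 did (-4.58, adjusted p = 0.00503). In Ctrl, Muc2 stood at 638, 8657, 59.1 and 1033 CPM in S-phase cells and 472, 7875, 38.8 and 139 in noncycling cells. Most Muc2 counts came from few S-phase cells, whose part in this call was not tested.

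Scin rose more in S phase. Its mean in S-phase cells went from 7.56 CPM in Ctrl to 139.6 in GF (53.9 without the 3 deep cells), in G2 and mitosis cells from 38.3 to 103 and in the noncycling cells from 66.2 to 82.6. The difference of log2 fold changes was 2.71 against G2 and mitosis (adjusted p = 6.05e-04; 2.25 and 0.0133 without cells over 100000 transcripts in either class) and 3.71 against noncycling cells (0.00454; 2.52 and 0.048). Ctrl S-phase cells were low in Scin to begin with, and in GF the classes lay closer together. Sidt1 fell more in S phase, from 124 to 10.8 CPM, than in G2 and mitosis, from 98.1 to 43.1, a difference of -2.42 (0.0131; -3.32 and 0.00203). The long noncoding RNA 2610035D17Rik had a difference of -0.82 (0.0131), with 658 CPM in Ctrl and 782 in GF in S phase beside 375 and 753 in G2 and mitosis.

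In the colon GF and Abx_14D were compared, since Ctrl gave 0 S-phase cells of 50 cells kept there. Of 9131 genes 1 rose (0.011%) and 24 fell (0.263%) in GF, 0.274% in all. The interferon-responsive genes made up most of them: 13 of 31 tested fell and 0 rose, 30 of 31 had an unadjusted p under 0.05 and a negative fold change, and their median was -1.47, beside -0.00 over all genes tested.

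Parp14, an ADP-ribosyltransferase, stood at 86.9, 134 and 61.3 CPM in Abx_14D samples 1 to 3 and 28.6, 23.8, 25.6 and 24.3 in GF (-1.91 ± 0.23 (SE, adjusted p = 0.0012)). Nlrc5 fell from 51.8, 66.3 and 39.9 (sample 4 at 19.0) to 4.92, 2.69, 4.88 and 0 CPM (-3.96 ± 0.39 (SE, adjusted p = 5.05e-04)).
Ddx60, a helicase that aids sensing of viral RNA, fell from 52.7, 45.4 and 30.7 to 3.45, 7.63, 7.31 and 2.70 CPM (-3.05 ± 0.33 (SE, adjusted p = 6.72e-04)). The GF samples lay under the Abx_14D samples in the test for these 3 genes, and sample 4 of Abx_14D was left out of it.

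Other called interferon genes fell by 1.06 to 3.87 on the log2 scale, among them Iigp1 and Xaf1 (-3.87 and -3.68), Psmb8 (-2.70), the oligoadenylate synthetases Oas1a and Oas1g (-2.37 and -2.30), Ifi27l2b (-1.39), Parp9 (-1.35) and Dtx3l (-1.06), and Oas2, with 1 count in GF, was 82.8-fold lower (95% counting interval 14.3 to 3320.1). The calls of Iigp1 and Oas1a were kept in 3 of 7 fits that left out a sample, that of Oas1g in 4, and those of Parp9 and Dtx3l in 2 each.
Cd74 and Ciita, the class II genes, fell as well: Cd74 stood at 284, 283 and 76.7 CPM in Abx_14D and 39.4, 3.14, 6.10 and 6.76 in GF (-3.84 ± 0.55 (SE, adjusted p = 0.00481)), with GF sample 1 the highest of its group, and the Ciita call was kept in 2 of 7 such fits. The single gene that rose was Rora, a nuclear receptor that works in the circadian clock, from 28.7, 48.9 and 39.9 to 207, 225, 341 and 527 CPM (3.13 ± 0.34 (SE, adjusted p = 6.72e-04)). Of 49 genes of origins and forks 0 passed (2 at an unadjusted p under 0.05, median -0.12, 0 by DESeq2).

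Colon and cecum were then compared within Abx_14D and within GF. Here 453 of 9638 genes passed in Abx_14D (4.7%), 280 higher in colon (2.91%) and 173 lower (1.79%), and 1026 in GF (10.6%), 500 higher (5.19%) and 526 lower (5.46%). Without the deep cells 807 passed in Abx_14D (8.43%, with 4.67% higher and 3.76% lower) and 585 in GF (6.11%, with 3.4% higher and 2.7% lower), and 476 genes passed in GF in both fits. The origin and fork genes hardly differed: 0 of 50 passed in Abx_14D and 1 in GF, Orc5, a subunit of the origin recognition complex (0.78 ± 0.21 (SE, adjusted p = 0.0213); 0.42 (adjusted p = 0.258) without the deep cells). DESeq2 called 1 higher in each.

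Rrm2 was the cell cycle gene that set the tissues apart in both conditions. It stood at 14.2, 11.6 and 9.20 CPM in colon Abx_14D (sample 4, outside the test, at 28.5) and 91.7, 49.2, 80.3 and 64.9 in cecum (-2.50 ± 0.34 (SE, adjusted p = 1.52e-04)). In GF it stood at 14.8, 16.6, 21.9 and 16.2 CPM in colon and 50.1, 56.9, 28.5 and 24.3 in cecum (-1.20 ± 0.29 (SE, adjusted p = 0.0103); -1.57 (adjusted p = 7.0e-04) without the deep cells). Colon samples lay under all cecal samples in both conditions. As described above, Rrm2 also differed among S-phase cells with the number of mitotic genes, and whether the bins differ between tissues was not tested here.

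Ccne1, cyclin E1, stood at 13.6, 11.6 and 9.20 CPM in colon Abx_14D and 39.6, 16.8, 39.5 and 42.5 in cecum (-1.47 ± 0.40 (SE, adjusted p = 0.0405)), and Tk1, thymidine kinase, at 21.6, 25.6 and 21.5 and 67.7, 27.2, 71.1 and 58.2 (-1.29 ± 0.36 (SE, adjusted p = 0.0441)). Each call was kept in 1 of 7 fits that left out a sample. In GF the log2 fold change of Ccne1 was -0.38 ± 0.35 (SE, adjusted p = 0.555). The members Mcm2 to Mcm7 were not called in either condition, with Mcm6 at 243, 172 and 199 CPM in colon Abx_14D and 209, 198, 195 and 195 in colon GF.

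The genes of regional identity separated S-phase cells of the tissues. Hoxd13 and Hoxb13, homeobox genes of the hindmost gut, were at or near 0 counts in cecum: Hoxd13 had 0 counts in cecum and was at least 9.95-fold higher in colon Abx_14D and at least 22.6-fold higher in GF, and Hoxb13 was 51.1-fold higher (95% counting interval 8.90 to 2043) and 42.6-fold higher (95% counting interval 11.6 to 355). Nr5a2, a nuclear receptor of crypt cells, stood at 448, 396 and 224 CPM in colon Abx_14D against 116, 136, 108 and 87.2 in cecum (1.69 ± 0.21 (SE, adjusted p = 7.52e-05)), and at 378, 366, 364 and 364 against 115, 134, 142 and 91.6 in GF (1.61 ± 0.20 (SE, adjusted p = 2.48e-05)). Neither pair of groups overlapped. Cdx2, a master factor of intestinal fate, was lower in colon GF (-0.84 ± 0.21 (SE, adjusted p = 0.0139); -0.76 without the deep cells). Nr5a2 stood at 1.43 in GF without them and passed, as did Hoxd13 and Hoxb13. Thbs4, an extracellular matrix protein, was at least 41.1-fold higher and 118-fold higher (95% counting interval 32.4 to 977) in colon.

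Absorptive genes differed already in S phase. Slc37a2, a sugar-phosphate transporter, stood at 23.1, 4.65 and 9.20 CPM in colon Abx_14D and 269, 349.8, 363 and 407 in cecum (-4.46 ± 0.49 (SE, adjusted p = 2.10e-05)), and had a log2 fold change of -7.0 ± 0.48 (SE, adjusted p = 6.15e-08) in GF (-5.65 without the deep cells). The carbonic anhydrases Car4 (-2.39 and -3.16, the latter -3.57 without the deep cells) and Car1 (-2.86 and -5.46, the latter -2.53 without the deep cells) were lower in colon as well, though the Car1 call in Abx_14D was kept in 2 of 7 fits that left out a sample. Of 25 absorptive genes 1 was higher and 4 lower in colon in Abx_14D, and 1 and 17 in GF, or 2 and 7 of 23 without the deep cells. Of 28 genes of oxidative phosphorylation 2 were lower in colon in Abx_14D and 14 in GF, which became 15 and 6 without the deep cells.

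Single genes of nicotinic acid and NAD metabolism also differed by tissue. Slc5a8, a sodium-coupled carrier of short-chain fatty acids and nicotinate, stood at 141, 159 and 88.9 CPM in colon and 69.8, 41.5, 61.8 and 55.9 in cecum in Abx_14D (1.21 ± 0.30 (SE, adjusted p = 0.0232)), and at 220.1, 174, 149 and 226 and 43.3, 79.2, 82.6 and 139 in GF (1.16 ± 0.27 (SE, adjusted p = 0.00664)). The colon samples were the higher ones throughout. Slc16a1, a proton-coupled carrier of monocarboxylates, was lower in colon, at 134, 111 and 147 against 342, 291, 347 and 418 CPM (-1.43 ± 0.23 (SE, adjusted p = 7.59e-04)) and -1.61 ± 0.20 (SE, adjusted p = 3.43e-05) in GF. Nmnat2, an enzyme of NAD synthesis, had log2 fold changes of -2.34 ± 0.49 (SE, adjusted p = 0.00759) and -2.10 ± 0.44 (SE, adjusted p = 0.00347). The GF values without the deep cells of Slc5a8, Slc16a1 and Nmnat2 were 1.62, -1.21 and -2.39, and all 3 passed. In Abx_14D the Slc5a8 call was kept in 2 of 7 fits that left out a sample. Of the 20 genes tested of that list 2 were higher and 3 lower in colon in Abx_14D, and 1 and 2 in GF, where 4.7% and 10.6% of all genes passed, so the 3 in GF lie near the share over all genes.

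Some of the defence genes that had fallen in the cecum were higher in colon, and others were not. Cd177 had log2 fold changes of colon against cecum of 4.64 ± 0.48 (SE, adjusted p = 1.14e-05) and 3.94 ± 0.42 (SE, adjusted p = 5.04e-06), Duox2 of 3.33 ± 0.55 (SE, adjusted p = 9.22e-04) and 3.33 ± 0.45 (SE, adjusted p = 6.52e-05), and Reg3g was at least 14.7-fold higher in GF colon. In GF without the deep cells Cd177 and Duox2 stood at 3.55 and 2.98 and passed. Nox1 was lower in colon in Abx_14D (-0.92 ± 0.25 (SE, adjusted p = 0.0389), kept in 1 of 7 fits that left out a sample) and had a log2 fold change of 0.01 ± 0.22 (SE, adjusted p = 0.988) in GF. Of 9 antimicrobial and oxidase genes tested 2 were higher and 1 lower in Abx_14D, and 3 and 2 in GF, or 3 and 0 of 8 without the deep cells. Of 33 interferon genes 10 were higher in colon in Abx_14D (median 1.35, all genes -0.05), and in GF 1 was higher and 1 lower. Whether these tissue differences themselves differed between Abx_14D and GF was not tested.
Wnt and stem cell genes were called in 0 of 23 in Abx_14D and in 12 of 23, all higher in colon, in GF, which became 6 and 4 without the deep cells. Fstl4, a secreted follistatin-like protein (6.92 ± 0.48 (SE, adjusted p = 6.15e-08)), and St3gal6, a sialyltransferase (5.92 ± 0.50 (SE, adjusted p = 4.46e-07)), were also higher in colon GF, at 7.0 and 5.63 without the deep cells.

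**Figure D5:**
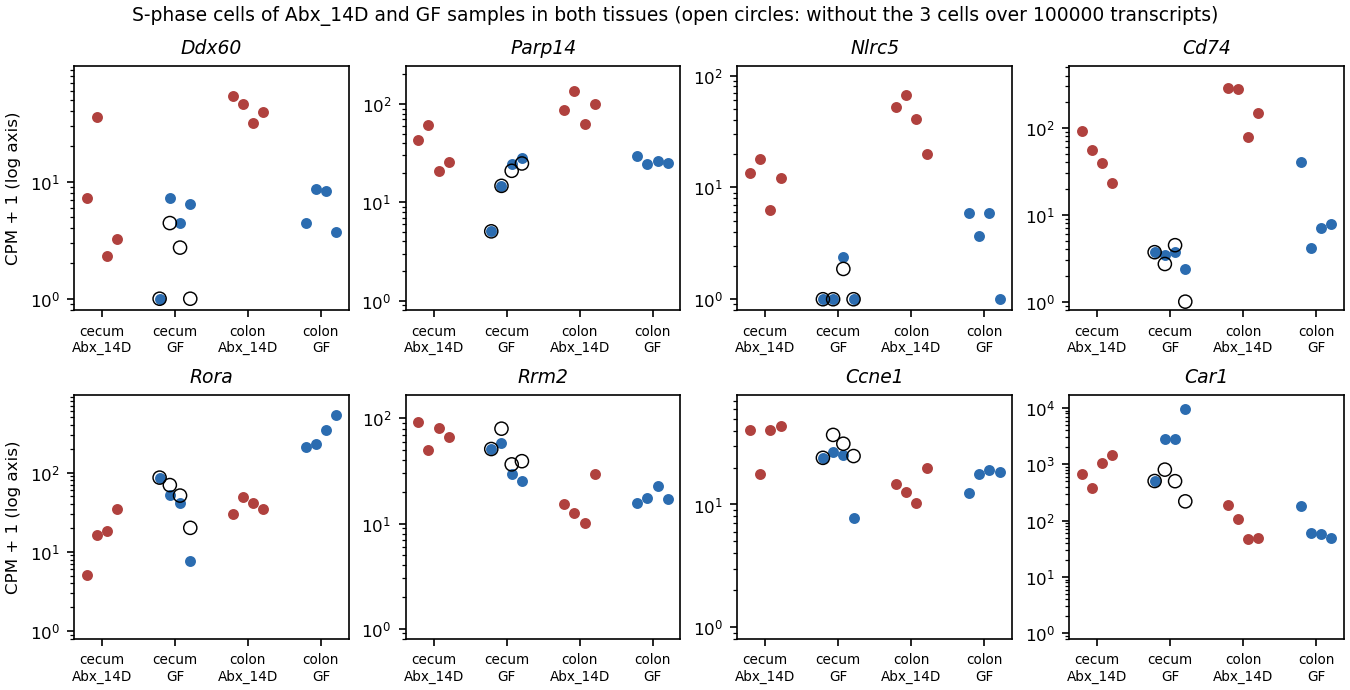
CPM + 1 (log axis) of 8 genes in S-phase sums of Abx_14D and GF samples of cecum and colon, 1 point per sample in the order 1 to 4, with open circles for cecal GF without the 3 cells over 100000 transcripts and with colon Abx_14D sample 4 shown though no test used it. Ddx60, Parp14, Nlrc5 and Cd74 lie lower in colon GF than in colon Abx_14D samples 1 to 3, Rora lies higher, and Rrm2 lies lower in colon than in cecum.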

How the data were processed

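The authors deposited 1 matrix of transcript counts (unnormalised unique molecules per gene and cell) with tables of barcodes and genes, and the loaded sample of each cell came from the cell table. Per the submitters' processing notes, mm39 and Seurat were used, with aligner and counter not given in the sources used here. Cells had at least 500 transcripts. No doublet caller was run. Counts of S-phase cells were summed per sample (at least 10 cells) and tested with edgeR 4.0.16 (quasi-likelihood, library-size scaling, default filter, Benjamini-Hochberg over all genes tested, adjusted p under 0.05) in R 4.3.3. Cecal groups shared 1 fit. Alternatives were DESeq2 1.42.0, TMM, no filter, other cell minimums and thresholds, thinning, left-out samples and sublibraries and, chosen after seeing the data, leaving out cells over 100000 transcripts. Shares were compared with exact permutation tests, and counting intervals were computed with scipy 1.17.1. The test was checked on simulated counts. Named genes were the 8 called genes (5 outside the Ctrl comparisons) with the largest change in each direction and at least 50 CPM, called members of 26 gene lists, and 24 cell cycle and lineage genes. The cells, lists and comparisons were chosen with earlier results of these data known. CPM values come from sums over single cells, so depth limits genes of few counts.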

Additional observations from a re-analysis of the deposited data

Results flagged for a closer look

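In 133 groups of 4 samples, each tested for 1 sample standing apart from the other 3 in a named gene or an S-phase share, 10 were found, where chance alone gives about 1 in 20 (6.65). All 10 were for named genes. Of these, 5 lay in cecal GF and 3 in its sample 4, the sample of the deepest cell: 1810065E05Rik at 1054 CPM, Pmp22, a myelin and epithelial junction protein, at 334 CPM, and Tmigd1, a brush border adhesion protein, at 182 CPM. In cecal GF sample 2, Reg4, a secretory lectin, stood at 87.9 CPM and Thbs4 at 2.48 CPM. Without the deep cells these values were 9.54, 4.77 and 4.77 CPM in sample 4 and 99.4 and 0 CPM in sample 2, in the same order.

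The other samples that stood apart were cecal Abx_4D sample 4 for Mt2 (193 CPM), cecal Abx_14D sample 3 for Dlg2 (3.95 CPM) and sample 4 for Reg3b (2.24 CPM), colon GF sample 1 for Cd74 (39.4 CPM) and colon GF sample 3 for Iigp1 (18.3 CPM). The values of Dlg2, Reg3b and Thbs4 are a few counts each.

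A difference of the GF response between classes of cell passed the test for Sidt1 (-2.42, S phase minus G2 and mitosis, on the log2 scale), 2610035D17Rik (-0.82) and Scin (2.71), and for Reg4 (-4.82) and Scin (3.71) between S phase and Lgr5-positive noncycling cells. Reg4 stood at 140.5, 1198, 21.9 and 226 CPM in the S-phase cells of cecal Ctrl and at 80.7, 876, 8.95 and 10.8 in the noncycling cells, with sample 2 the highest in both. In cells used in no comparison, the rule found 44 S-phase cells in colon Abx_4D, where colon Ctrl held 0.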

How the results depend on the processing

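Of 6342 values of named genes under alternatives, 4978 kept their direction and side of the threshold, 1346 kept their direction but no longer passed and 18 reversed. Without a filter on low counts, the calls were 116, 183 and 845 for Abx_4D, Abx_14D and GF against Ctrl, 429 for GF against Abx_14D, 53 for Abx_14D against Abx_4D, 172 for colon GF against Abx_14D, and 925 and 1704 for colon against cecum in Abx_14D and GF. DESeq2 gave 29 and 57 against Ctrl in Abx_4D and Abx_14D and 137 for GF against Abx_14D. Asking for 20 cells a sample gave 58 for Abx_14D and 200 for GF against Ctrl, 8 for GF against Abx_14D and 765 for colon against cecum in Abx_14D. Asking for 7 S-phase genes gave 44, 79, 1, 0, 16 and 428 for Abx_14D and GF against Ctrl, GF against Abx_14D, Abx_14D against Abx_4D, colon GF against Abx_14D and colon against cecum in GF. Thinning to 10000 transcripts gave 69 for GF against Ctrl, 4 for GF against Abx_14D, 1 for Abx_14D against Abx_4D, 12 for colon GF against Abx_14D and 403 for colon against cecum in GF. Without samples of high mitochondrial share, GF against Ctrl gave 196, GF against Abx_14D 1 and Abx_14D against Abx_4D 0. Without the 3 deep cells, an alternative chosen after seeing the data, the counts were 26, 54 and 116 against Ctrl, 5 for GF against Abx_14D, and 807 and 585 for colon against cecum. With all cells over 100000 transcripts left out of both classes, 34 of them G2 and mitosis cells, the differences between classes were 3 (GF against Ctrl) and 1 (GF against Abx_14D) for G2 and mitosis and 1 (Abx_4D) for noncycling cells. The cause of these changes was not tested.

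Leaving out 1 sample or sublibrary moved the counts to 0 to 22, 15 to 50 and 163 to 637 against Ctrl, 1 to 189 for GF against Abx_14D, 0 to 3 for Abx_14D against Abx_4D, 14 to 49 for colon GF against Abx_14D, and 248 to 616 and 688 to 1584 for colon against cecum. GF against Ctrl had 163 without sublibrary 6, 188 without GF 4 and 637 without GF 1, and GF against Abx_14D had 1 without Abx_14D 1 and 189 without GF 1. Differences between classes moved to 0 to 1 (Abx_14D), 27 to 156 (GF) and 0 to 5 (GF against Abx_14D) for G2 and mitosis, and 0 to 5 (GF) and 0 to 3 (GF against Abx_14D) for noncycling cells.

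Share differences reversed for colon GF against Abx_14D when thinned (-0.329 points) and for Abx_14D against Abx_4D without samples of high mitochondrial share (1.46). As a share of dividing cells they reversed for colon GF against Abx_14D at 7 genes (2.82) and in cells of 10000 or more transcripts (1.62), and without those samples for cecal GF against Abx_14D (-0.307) and Abx_14D against Abx_4D (4.54). Leaving out a sample gave -1.06 to 1.26 points for cecal GF against Abx_14D and -0.431 to 1.70 for colon GF against Abx_14D, and -7.73 to 2.12 for the latter among dividing cells.

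Genes reversed as follows. Against Ctrl in GF at 7 genes, Guca2a stood at -0.12, Cyp2c55 at -0.081 and Cdhr5 at -0.35, and without the deep cells Guca2a at -0.13, Cyp2c55 at -0.23, Cdhr5 at -0.30, Car1 at -0.074 and Cdkn1a at -0.081. For GF against Abx_14D, 1810065E05Rik stood at -0.28 and Guca2a at -0.79 at 7 genes, and 1810065E05Rik at -0.44, Guca2a at -0.98 and Emp1 at -0.0063 without the deep cells. For colon against cecum in GF, Guca2a stood at 0.55 and Cdhr5 at 0.055 at 7 genes, and Guca2a at 0.99, Cdhr5 at 0.019 and Krt20 at 1.59 without the deep cells.

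Same-numbered samples of the cecal groups had correlations of their deviations from -0.175 to 0.202 (median 0.048), over 0.1 in 6 of 24 pairs of samples. Differently numbered cecal samples had -0.245 to 0.194 (median -0.0254), over 0.1 in 9 of 72 pairs. In the colon the ranges were -0.0169 to 0.0989 and -0.084 to 0.0248. The numbers were not taken to pair samples, though a small shared part is not excluded. Such correlations were not computed between cecum and colon, so pairing across tissues was not examined this way. With the replicate block 11 genes passed for Abx_4D against Ctrl, and in the other comparisons the counts stayed within 1.5 times: 34 and 451 against Ctrl, 47, 2, 19, 407 and 1117. Depth limited genes of few counts, since a tested sample could hold as few as 13 S-phase cells.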

Other observations

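The stem cell receptor Lgr5 was not called in S-phase cells of the cecum in any comparison with Ctrl by edgeR. Lgr5 stood at 295, 351, 208 and 472 CPM in the Ctrl samples, 447, 424, 428 and 471 in Abx_4D, 328, 564, 293 and 420.5 in Abx_14D and 485, 215, 326 and 143 in GF, with each treated group overlapping Ctrl and log2 fold changes of 0.41 ± 0.30 (SE, adjusted p = 0.961), 0.26 ± 0.29 (SE, adjusted p = 0.95) and -0.20 ± 0.29 (SE, adjusted p = 0.785). The GF fold change includes the 3 deep cells, which were low in Lgr5. Without them the GF samples stood at 485, 296, 405 and 496 CPM, which still overlapped Ctrl. Slc12a2 was higher in colon than in cecum in GF by edgeR, at 1857, 2298, 2015 and 2338 against 1647, 953, 1253 and 589 CPM (0.94 ± 0.24 (SE, adjusted p = 0.0152)), and at 0.41 (adjusted p = 0.188) without the deep cells. Muc2 stood at 638, 8657, 59.1 and 1033 CPM in Ctrl and 26.9, 94.3, 54.0 and 48.8 in Abx_4D, a log2 fold change of -5.68 ± 1.26 (SE, adjusted p = 0.108) that did not pass, and the groups overlapped.

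Among genes of the circadian clock, Tef and Nr1d2 rose in GF against Ctrl (2.14 ± 0.46 (SE, adjusted p = 0.0108) and 0.95 ± 0.24 (SE, adjusted p = 0.031)) and Nfil3, a repressor in the clock, fell (-1.95 ± 0.48 (SE, adjusted p = 0.0222)). Without the deep cells, Tef was not tested, Nr1d2 stood at 0.90 (adjusted p = 0.0801) and Nfil3 at -1.52 (adjusted p = 0.171). Of 20 genes of cholesterol synthesis, Cyp51 and Hsd17b7 rose in GF (1.10 ± 0.30 (SE, adjusted p = 0.0383) and 1.25 ± 0.32 (SE, adjusted p = 0.0309)), and 0 of 19 passed without the deep cells. With all cells the calls of Cyp51, Hsd17b7 and Nr1d2 were each kept in 2 of 8 fits that left out a sample, and that of Nfil3 in 4.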
